A study of Mus musculus with 6 samples.

Results

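The CELF, ELAV-like and RBFOX genes encode RNA-binding proteins that set how transcripts are spliced, kept stable and translated. Of these families, 10 genes are described here: Celf1, Celf2, Celf3, Celf4, Celf5, Elavl2, Elavl3, Elavl4, Rbfox1 and Rbfox3. Their regions were selected by gene name from the authors' list of differentially methylated regions, and the genes were chosen from differences already seen in that list, that is, from the depressed and normal group means. They hold 30 distinct regions of 9707 in all, or of 6501 listed with any gene. Regions were found for 7 of the 10 genes, while Celf1, Celf3 and Celf5 had 0 in the table analysed here.

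The data came from 6 single mouse embryos of C57BL/6 background at embryonic day 4.5, the late blastocyst stage, measured by whole-genome bisulfite sequencing, which reads unmethylated cytosines as thymine. Sperm small RNAs at 2 ng/µl had been microinjected into each fertilised egg. The donors were males with stress-induced depression for 3 embryos (replicates 1, 3 and 4; the depressed group, or depressed-RNA embryos) and normal males for the other 3 (replicates 1, 2 and 4; the normal group, or normal-RNA embryos). All were cultured at 37 °C and taken about 108 h after injection. The sources used here give neither the kind of stress nor the sex of the embryos. The design asks whether the small RNAs of depressed males leave another methylation pattern in the embryo. The table holds a group mean by the authors for each region and 0 columns of values per embryo. No level therefore has an error or an n of its own, the depth is unknown, and no difference could be set against the spread among embryos. A level is also an average over all cells of an embryo, so the share of a cell type and the level within it cannot be told apart. All values are descriptions of the list, with no test.

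As background, CELF proteins bind GU-rich RNA and act in alternative splicing and mRNA decay. ELAV-like proteins, the Hu antigens, bind U-rich and AU-rich elements, mostly in 3′ UTRs (untranslated regions), and stabilise transcripts. RBFOX proteins bind GCAUG and guide splicing of nearby exons. Celf3, Celf4, Celf5, Elavl3, Elavl4, Rbfox1 and Rbfox3 are known mainly from neurons, Rbfox3 as the antigen NeuN, whereas Celf1 and Celf2 act in many tissues. A blastocyst holds no neurons and expression was not measured, so "neuronal" describes the genes, not the cells. Methylation in mammals lies mostly at CG. CHG and CHH cytosines, where H is any base but G, are methylated little in most cells.

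The 30 regions comprised 1 CG, 8 CHG and 21 CHH regions. In the whole list 90.9% of regions also lay outside the CG context. In the depressed group 17 were lower than in the normal group and 13 were higher. The 1 CG and 8 CHG regions were all lower, and of the 21 CHH regions 8 were lower and 13 higher. Over the whole list, lower regions made up 41.2% of all contexts together, 98.5% of CG, 91.0% of CHG and 20.4% of CHH regions, and 79.6% of CHH regions were higher. Since these differences chose the genes, nothing is read from the counts.

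Lower and higher regions differed in size as well as in sign. The 17 lower regions had a median level of 0.526% in depressed-RNA embryos and 41.0% in normal-RNA embryos. Their median difference was -38.7 percentage points, with an exact 95% interval over regions of -46.5 to -15.4. It was -15.4 points without Celf2 (7 regions) and -16.5 points with at least 10 cytosines per region (9 regions). In the 8 lower CHH regions alone it was -15.9 points, and the 13 higher regions were all CHH. The interval takes regions as independent, although 10 of the 17 belong to Celf2. The 13 higher regions had medians of 5.58% in depressed-RNA embryos and 1.15% in normal-RNA embryos, and a median difference of 4.39 points (exact 95% interval over regions 2.90 to 5.84). In 12 of the 13 higher regions the depressed level stayed below 10%. Over all listed regions the medians of lower ones were 0.684% in depressed-RNA embryos and 36.3% in normal-RNA embryos, and those of higher ones 4.87% in depressed-RNA embryos and 0.754% in normal-RNA embryos. The larger absolute change thus stood on the lower side in these genes, as in the list as a whole. Within the CHH context, higher regions were also denser in listed cytosines, with a median of 53.1 per 100 bp against 21.5 in lower regions. Over all listed CHH regions the medians were much the same, at 50.0 in higher and 21.2 in lower ones.

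**Figure D1:**
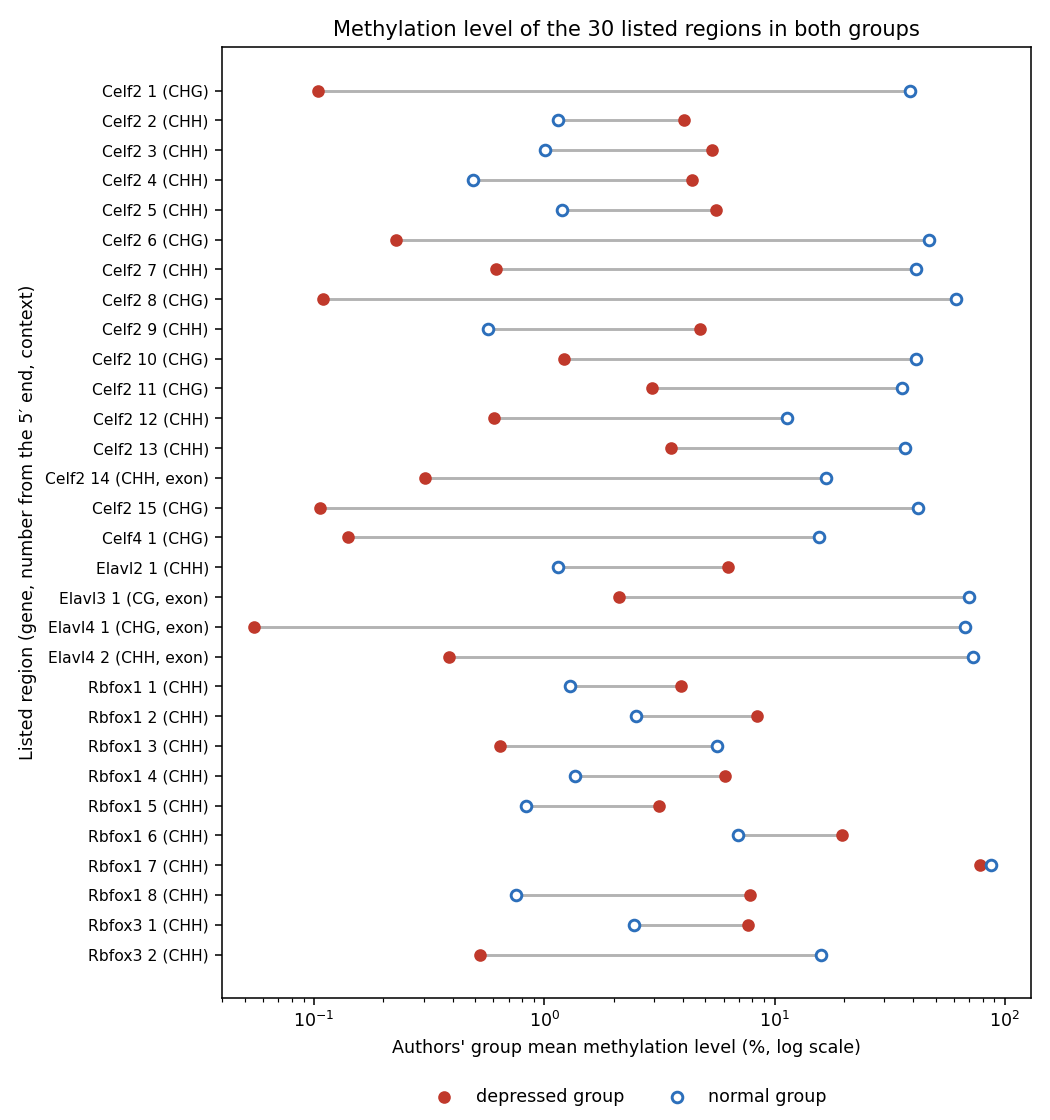
Authors' group mean methylation level (%, log scale) of the 30 regions listed with the genes, one line per region, numbered from the 5′ end of the gene; filled points are the depressed and open points the normal group. The 13 higher regions run from 0.491 to 6.96% in the normal group, while the normal level of the 17 lower regions lies between 5.62 and 86.9%.

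The ELAV-like genes carried 4 regions, of which 3 were lower in the depressed group and touched an exon. Elavl4, which encodes HuD, an RNA stabiliser of developing neurons, held the largest difference of all 30. Its CHH region (mm10, chromosome 4, 110206464 to 110206611; 28 cytosines in 148 bp) was at 0.386% in depressed-RNA embryos and 72.5% in normal-RNA embryos. Its CHG region at the same place (110206488 to 110206606; 10 cytosines) was at 0.0551% in depressed-RNA embryos and 67.0% in normal-RNA embryos. Both were listed as exon, and they overlapped each other at 98.1% of the distance from the 5′ to the 3′ end of the RefSeq span. By size of difference the CHH region ranked 36 of 1415 lower CHH regions and the CHG region 119 of 1715 lower CHG regions. By the authors' region statistic, which accumulates over a region's cytosines, they ranked only 810 and 491.

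Elavl3, which encodes HuC, an early marker of neurons, carried the only CG region. It covered 5111 bp (chromosome 9, 22031688 to 22036798) but held only 8 CpGs, or 0.157 per 100 bp. The level was 2.10% in depressed-RNA embryos and 70.0% in normal-RNA embryos. The region was listed as exon and intron of Elavl3, as 3′ UTR and transcript end of a second transcript, RP23-123D6.10, and with 12 repeat entries. It was 1 of 4 CG regions of at least 5000 bp among 880. Elavl2, which encodes HuB, had 1 intronic CHH region (chromosome 4, 91389902 to 91390018) that was higher, at 6.31% in depressed-RNA embryos and 1.14% in normal-RNA embryos. With 73.5 cytosines per 100 bp it was the densest of the 30.

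Celf2, a splicing regulator of brain, muscle and blood cells, held 15 of the 30 regions. Only 2 of 21900 protein-coding genes had more by the table's gene names, and no other had as many. Its RefSeq span of 856.6 kb is also long, with 89 longer spans, and it carried 1.75 regions per 100 kb. In the depressed group 10 were lower and 5 higher. All 6 CHG regions were lower and intronic, with 5 to 9 cytosines each. The strongest by statistic (chromosome 2, 6881141 to 6881274) was at 1.22% in depressed-RNA embryos and 41.2% in normal-RNA embryos. The other 5 lay between 0.104 and 2.92% in depressed-RNA embryos and between 35.7 and 61.1% in normal-RNA embryos. Each of the 6 was lower by at least 32.8 points. By the table's gene names, 4 protein-coding genes had at least 6 lower CHG regions, namely Celf2, Bsn, Grin2b and Fgfr2.

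The 4 lower CHH regions of Celf2 included the only one in this gene with an exon or UTR entry. That region spanned 5646 bp (chromosome 2, 6621206 to 6626851; exon, 5′ UTR, intron and repeat) with 96 cytosines, or 1.70 per 100 bp. It was at 0.304% in depressed-RNA embryos and 16.8% in normal-RNA embryos. The other 3 were intronic and stood at 0.601 to 3.56% in depressed-RNA embryos and 11.3 to 40.9% in normal-RNA embryos. The 5 higher CHH regions were all intronic, with levels of 4.05 to 5.58% in depressed-RNA embryos and 0.491 to 1.19% in normal-RNA embryos. The strongest by statistic (chromosome 2, 7304273 to 7304532; 140 cytosines) was at 4.05% in depressed-RNA embryos and 1.15% in normal-RNA embryos. In normal-RNA embryos the lower CHH regions of Celf2 thus stood above the higher ones, which the split by sign itself favours. Over all listed CHH regions the medians in normal-RNA embryos were 24.9% for lower and 0.769% for higher ones.

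At one place in Celf2 both directions lay side by side. A lower CHH region (chromosome 2, 7174694 to 7174923) was at 0.614% in depressed-RNA embryos and 40.9% in normal-RNA embryos. A lower CHG region overlapped it, at 0.226% in depressed-RNA embryos and 46.7% in normal-RNA embryos. After a gap of 86 bp followed a higher CHH region (7175010 to 7175255) at 5.58% in depressed-RNA embryos and 1.19% in normal-RNA embryos, listed with the endogenous retroviral repeats RLTR31D_MM and RMER17C2. In the whole list 3 of 5528 higher CHH regions (0.0543%) had a lower CHH region within 1 kb. How often regions this sparse would lie so close by placement alone was not tested, so nothing is read from the closeness.

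The regions of Celf2 were also spread unevenly along the gene. The 5 higher ones lay between 10.7 and 35.98% of the distance from the 5′ end, and of the 10 lower ones 4 lay between 9.14 and 28.6% and 6 between 60.1 and 93.1%. Celf4, a splicing regulator of neurons, was the only other CELF gene with a region. This CHG region (chromosome 18, 25733291 to 25733360; intron, 7 cytosines) was at 0.140% in depressed-RNA embryos and 15.6% in normal-RNA embryos.

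The RBFOX genes carried 7 higher and 3 lower regions, where the CELF genes carried 5 higher and 11 lower ones, a difference that was not tested. All 10 RBFOX regions were CHH regions in introns, while the CELF regions included CHG ones, and 15 of the 16 lay in Celf2. Over the whole list 79.6% of CHH regions were higher and 91.0% of CHG regions lower, so counts over all contexts mix family with context. Among CHH regions alone, the CELF genes had 4 lower and 5 higher ones, all in Celf2. The RBFOX genes had 3 lower and 7 higher ones. Rbfox1, a neuronal and muscle splicing regulator, carried 8 of the RBFOX regions, of which 6 were higher. Its RefSeq span of 1527.7 kb is exceeded by 13 protein-coding genes, and it held 0.524 regions per 100 kb. The strongest higher region (chromosome 16, 6980715 to 6980963; 138 cytosines) was at 6.08% in depressed-RNA embryos and 1.36% in normal-RNA embryos. The largest difference on the higher side of all 13 lay at 7039265 to 7039395, with 19.5% in depressed-RNA embryos and 6.96% in normal-RNA embryos. It was also the only higher region of Rbfox1 in a repeat, the satellite-class element IMPB_01, in which 759 of 807 listed CHH regions were higher. The other 5 higher regions were at 3.15 to 8.35% in depressed-RNA embryos and 0.754 to 2.51% in normal-RNA embryos.

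The lower regions of Rbfox1 were unlike those of the other genes. One (chromosome 16, 6947042 to 6947229) fell by 4.98 points, the smallest lower difference of the 17, with 0.644% in depressed-RNA embryos and 5.62% in normal-RNA embryos. The other (7278305 to 7278513; 83 cytosines) was highly methylated at CHH in both groups, at 78.0% in depressed-RNA embryos and 86.9% in normal-RNA embryos. Levels above 50% in both groups were found in 123 of 6943 listed CHH regions. All 8 regions listed with Rbfox1 lay at or beyond 67.1% of the distance from the 5′ end of its RefSeq span. A further 2 lower regions inside this span were not listed with the gene and are not counted here. Whether the gene annotation behind the list covers the whole span was not tested. Rbfox3, which encodes NeuN, had 1 region in each direction. The lower one (chromosome 11, 118763953 to 118764254), in an intron and a LINE-1 repeat, was at 0.525% in depressed-RNA embryos and 15.8% in normal-RNA embryos. The higher one (118806924 to 118807122; intron) was at 7.68% in depressed-RNA embryos and 2.46% in normal-RNA embryos.

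**Figure D2:**
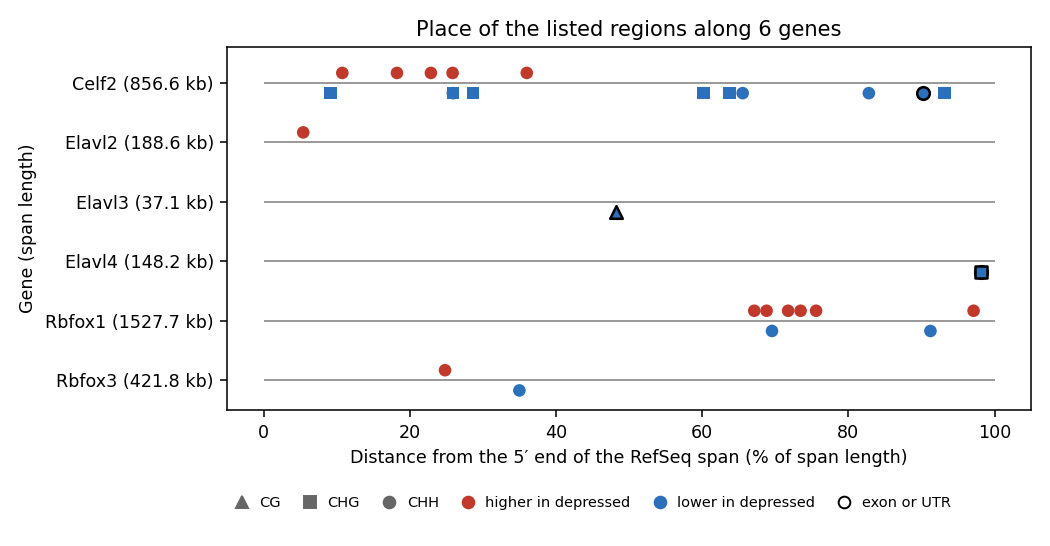
Place of 29 regions along 6 genes, as distance from the 5′ end in percent of the RefSeq span; red symbols above a line are higher and blue ones below it lower in the depressed group, shapes give the context and black outlines an exon or UTR. All 8 regions listed with Rbfox1 lie at or beyond 67.1% and both of Elavl4 overlap at 98.1%. Not drawn are 2 regions inside the Rbfox1 span that were not listed with the gene. Celf4 is not drawn either, since its strand was not at hand.

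By annotation, the higher regions were purely intronic and the lower ones mostly so. Of the 13 higher regions 0 touched an exon or UTR (exact 95% interval over regions 0 to 24.7%), and all 13 were listed with an intron and with no exon, UTR or promoter. Of the 17 lower regions 4 touched an exon or UTR (23.5%, 6.81 to 49.9%), 2 in Elavl4 and 1 each in Elavl3 and Celf2, and 13 were intronic alone (76.5%, 50.1 to 93.2%). Without Celf2, 3 of 7 lower regions touched an exon or UTR (42.9%). The share was 13.3% without Elavl4, whose 2 regions overlap (15 regions left). It was also 13.3% with regions of at most 1000 bp (15 regions left), which drops those of Elavl3 and Celf2. Repeats were listed for 4 of 13 higher regions (30.8%, 9.09 to 61.4%) and 6 of 17 lower ones (35.3%, 14.2 to 61.7%), shares whose intervals overlap widely. Over all regions listed with a gene, repeats made up 37.5% of higher and 18.0% of lower ones. Of the 30 regions 0 were listed with a promoter and 0 with a CpG island or its shore. A 3′ UTR of any gene was listed for 1 of 17 lower regions (5.88%, 0.149 to 28.7%) and 0 of 13 higher ones. The 1 region was that of Elavl3, where the 3′ UTR belongs to the second transcript. Over all regions listed with a gene, promoters made up 10.3% of higher and 15.97% of lower ones. CpG islands or shores made up 4.69% of higher and 17.6% of lower ones, and 3′ UTRs 2.05% of higher and 42.8% of lower ones.

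The same shares were taken over all regions listed with a gene, in which the members are included. Among CHG regions that were lower, 1 of 8 touched an exon or UTR in these genes (12.5%, 0.316 to 52.7%), against 1344 of 1588 over all genes (84.6%, 82.8 to 86.4%). For lower CHH regions the counts were 2 of 8 (25.0%, 3.19 to 65.1%) against 882 of 1227 (71.9%, 69.3 to 74.4%). Higher CHH regions were mostly intronic in both sets, with 13 of 13 (100%, 75.3 to 100%) against 2489 of 2866 (86.8%, 85.6 to 88.1%). Repeats made up 30.8% of higher CHH regions in these genes against 39.3% over all genes. In lower CHH regions they made up 37.5% against 21.8%, and in lower CHG regions 25.0% against 9.89%, with the members' shares resting on 8 regions each. Of the 7 intronic CHG regions 6 belonged to Celf2 alone, regions of 1 gene are not independent, and these shares describe the list. All 7 held fewer than 10 cytosines. With at least 10 cytosines per region, 1 of the 8 lower CHG regions was left, the exonic one of Elavl4. The same 1 was left with a statistic at or above the median of its context. The low exon share among CHG regions thus rested on regions with few cytosines and weaker statistics.

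**Figure D3:**
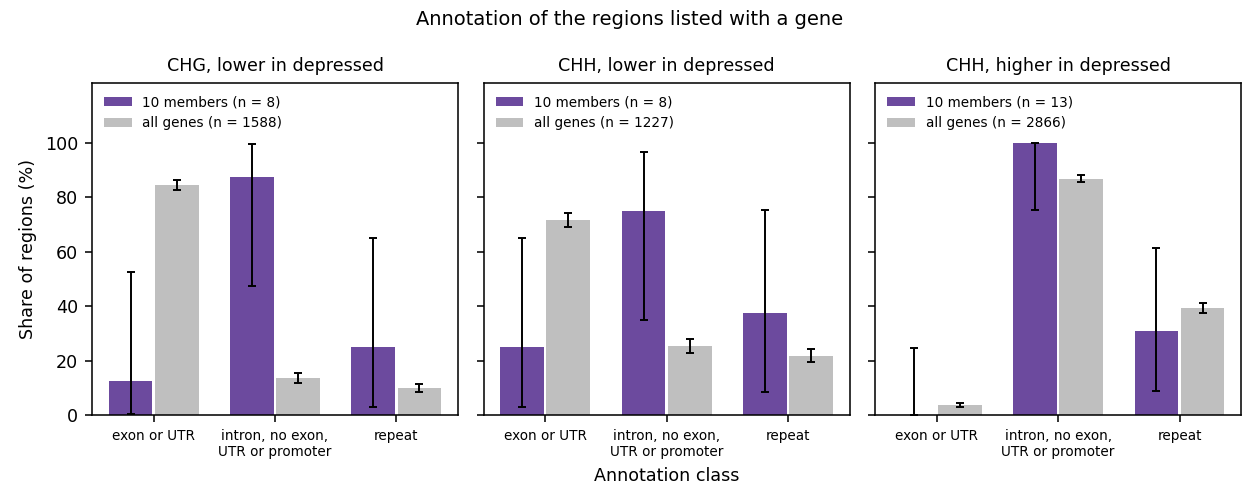
Share of regions (%) listed with an exon or UTR, with an intron and no exon, UTR or promoter, and with a repeat, for the 10 genes (purple, left bar) and all regions listed with a gene (grey, right bar); error bars are exact 95% binomial intervals over regions. Exons or UTRs were touched by 12.5% of lower CHG regions in the 10 genes and 84.6% over all genes, while higher CHH regions were mostly intronic in both. With at least 10 cytosines per region, 1 of the 8 lower CHG regions of the 10 genes was left, and it was exonic.

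Against other genes of their context, the members' levels fell inside the usual clouds of points. Lower CHG regions had medians of 0.125% in depressed-RNA embryos and 41.7% in normal-RNA embryos, and all 1715 listed ones had 0.174% in depressed-RNA embryos and 30.9% in normal-RNA embryos. Lower CHH regions had medians of 0.608% in depressed-RNA embryos and 26.8% in normal-RNA embryos, and all 1415 listed ones had 0.637% in depressed-RNA embryos and 24.9% in normal-RNA embryos. For higher CHH regions the members' medians, given above, stood beside 4.76% in depressed-RNA embryos and 0.769% in normal-RNA embryos over all 5528. The region of Rbfox1 that was highly methylated in both groups sat apart from the other 20 CHH regions.

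**Figure D4:**
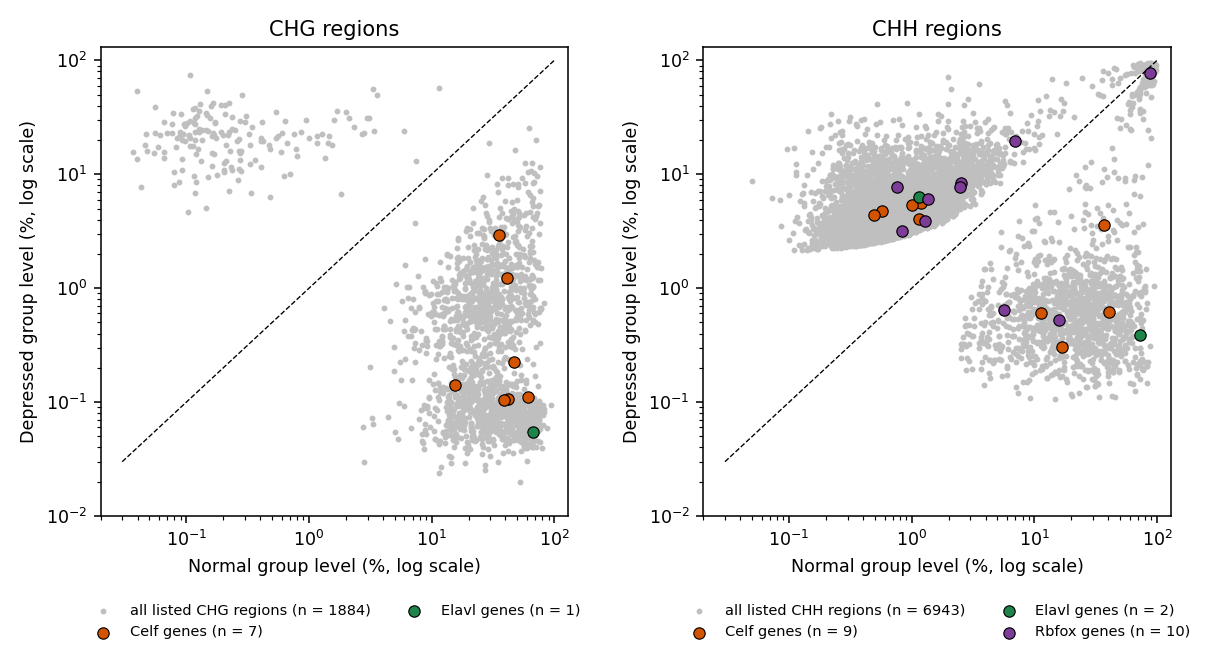
Depressed group level against normal group level (%, both log scales) for all listed CHG regions (left) and CHH regions (right) in grey, with the regions of the 3 families in colour; the dashed line marks equal levels. Member regions fall within the grey clouds, and 1 Rbfox1 region lies at the upper right, at 78.0% in depressed-RNA embryos and 86.9% in normal-RNA embryos.

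Counted by gene, 7 of the 10 had any region, where 17.5% of 21900 protein-coding genes did. A lower region was found in 6 (Celf2, Celf4, Elavl3, Elavl4, Rbfox1 and Rbfox3), against 9.96% of all, and a higher region in 4 (Celf2, Elavl2, Rbfox1 and Rbfox3), against 9.50%. A lower region touching an exon or UTR was found in 3 (Celf2, Elavl3 and Elavl4), against 7.16%. These genes are long, with a median RefSeq span of 168.4 kb against 17.1 kb over protein-coding genes, and they were chosen for their regions. Per 100 kb of span they held 0.838 regions, or 0.551 without Celf2, and all protein-coding genes held 0.632, so the order turned on Celf2. The genes with no region, Celf1, Celf3 and Celf5, span 79.2, 18.5 and 23.5 kb.

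RefSeq start windows of 300 bp (250 bp before and 50 bp after a start, build GRCm38.p6) were at hand for 9 of the 10 genes, 32 windows in all, Celf4 being the exception. A listed region overlapped 0 of the 32, and 63 of all 32851 such windows (0.192%), so nothing is read from the 0. These windows held a median of 11 CpGs, against 7 over all windows, and up to 48 in Celf2, 34 in Celf1 and 29 in Elavl3. The region nearest to a start was the lower one of Rbfox3, 2.91 kb away, and the nearest higher region, in Celf2, lay 6.77 kb away.

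Of 62 other RNA-binding genes of like functions, a list drawn up with earlier results of these data known, 14 had a region (22.6%). A lower region was found in 12 (19.4%) and a higher one in 8 (12.9%). Over all protein-coding genes 17.5% had any region, 9.96% a lower and 9.50% a higher one. Of their 25 lower regions 23 touched an exon or UTR (92%), and of their 12 higher ones 1 did. Over all regions listed with a gene, 71.5% of lower and 8.41% of higher ones touched an exon or UTR. That 71.5% includes CG regions (38.9%), of which these genes had 0. It was 84.6% for lower CHG and 71.9% for lower CHH regions. Several of the 25 are CHG and CHH regions that overlap at the same place, so they are not independent. Among the closest relatives, Celf6 and Elavl1 had 0 regions. Rbfox2, the broadly expressed RBFOX gene, had 3 lower regions in its 3′ UTR and 1 higher intronic one. The lower CHG region lay inside a lower CHH region, and both were also listed with a promoter. Its CHG region (chromosome 15, 77081645 to 77082676) was at 0.146% in depressed-RNA embryos and 47.5% in normal-RNA embryos. Its CHH regions in the 3′ UTR were at 0.328% and 0.720% in depressed-RNA embryos, against 42.5% and 41.3% in normal-RNA embryos. The intronic CHH region, also listed with the repeats B4 and IMPB_01, was at 2.68% in depressed-RNA embryos and 0.364% in normal-RNA embryos. Rbfox1 and Rbfox3 had only intronic regions.

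Splicing regulators had a region in 6 of 24 genes (25.0%, against 17.5% of protein-coding genes). Nova2, a neuronal splicing factor, had a CHG region in its 3′ UTR at 1.07% in depressed-RNA embryos and 24.2% in normal-RNA embryos and a higher intronic CHH region at 23.8% in depressed-RNA embryos and 7.96% in normal-RNA embryos. Srsf5, a gene of the SR protein family, had overlapping exonic CHG and CHH regions. The CHG one was at 4.21% in depressed-RNA embryos and 44.3% in normal-RNA embryos, and the CHH one at 4.89% in depressed-RNA embryos and 44.1% in normal-RNA embryos. Srrm4, which drives neuronal microexon splicing, had 0 lower regions and 2 higher ones. They were at 6.30% in depressed-RNA embryos and 0.483% in normal-RNA embryos (CHG, exon) and 6.68% in depressed-RNA embryos and 1.56% in normal-RNA embryos (CHH, intron). Khdrbs3 had 2 lower and 2 higher CHH regions, all intronic. The higher ones were at 8.10% and 9.51% in depressed-RNA embryos, against 1.16% and 2.22% in normal-RNA embryos. Qk, a regulator of splicing in glia, had a higher intronic CHH region at 4.21% in depressed-RNA embryos and 0.677% in normal-RNA embryos. It also had a lower CHH region in its 3′ UTR, at 0.664% in depressed-RNA embryos and 17.3% in normal-RNA embryos.

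Genes of mRNA stability, transport and translation had a region in 5 of 25. This share lay between the 25.0% of splicing regulators and the 17.5% of protein-coding genes. Msi2, a translational regulator of stem cells, had an exonic CHG region at 3.37% in depressed-RNA embryos and 19.4% in normal-RNA embryos and 3 higher intronic CHH regions. The strongest of these was at 3.54% in depressed-RNA embryos and 0.230% in normal-RNA embryos. Cpeb4, which controls poly(A) tails, had a CHH region at its promoter and an exon at 0.137% in depressed-RNA embryos and 31.4% in normal-RNA embryos, and a CHG region in its 3′ UTR at 9.26% in depressed-RNA embryos and 54.9% in normal-RNA embryos. Stau2, a gene of RNA transport, had a higher intronic CHH region at 3.79% in depressed-RNA embryos and 0.464% in normal-RNA embryos. It also had 2 lower regions, a CHG one in its 3′ UTR at 0.0587% in depressed-RNA embryos and 21.4% in normal-RNA embryos and a CHH one at its promoter and 5′ UTR at 0.230% in depressed-RNA embryos and 2.94% in normal-RNA embryos. Of 10 hnRNP and FET genes 2 had a region, the same share as in the genes of mRNA stability, transport and translation. Hnrnpc, a gene of a nuclear RNA-packaging protein, had a CHH region in its 3′ UTR at 0.461% in depressed-RNA embryos and 53.3% in normal-RNA embryos.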

How the data were processed

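Per the labels' protocols, DNA of each embryo was bisulfite-converted and primed at random for its library. The submitters' processing notes name mm10, Trim Galore 0.3.3, Bismark and SAMtools. How regions were called and filtered and how embryos were pooled is not given there or in the labels. The deposited table gives each group's level as a fraction (turned to percent here), their difference, a region statistic (a score) and the count of cytosines per region, per the file headers. Entries were collapsed to distinct regions by chromosome, start, end and context. Members were matched by gene name; 3879 of 4040 names in the table matched a symbol in the RefSeq table for GRCm38.p6. Intervals are exact binomial (95%) over regions, and for medians from order statistics. They do not measure the precision of a level, since depth is unknown. The members and gene lists were chosen with earlier results of these data known. All 10 members are named, and other RNA-binding genes by the strongest statistic per direction (6 genes each). Region sequences were not used here. Steps were checked on simulated data. Python 3.11.15, pandas 2.3.3 and SciPy 1.17.1 were used.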

Additional observations from a re-analysis of the deposited data

How the results depend on the processing

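Counts and shares were recomputed under 17 settings for the 10 genes, 1 of them (regions of at most 1000 bp) chosen after seeing the data, and 5 for the other RNA-binding genes. Leaving Celf2 out of the density per 100 kb was also chosen after seeing the data. The settings drop or merge regions, so no region could change sign. With a difference of at least 10 points, 1 higher region (that of Rbfox1 in IMPB_01) was left, so 1 gene had one, its repeat share was 100% and the median 12.6 points. With at least 10 cytosines 9 lower and 13 higher regions were left, and the lower CHG regions fell from 8 to 1. With a statistic at or above the median of its context 4 lower and 11 higher were, and of these 4 lower ones 75.0% touched an exon or UTR and 75.0% a repeat. Without Celf2 there were 7 lower and 8 higher regions, and without Rbfox1 7 higher ones. With regions of at most 1000 bp, 1 gene had a lower region in an exon or UTR (Elavl4). Of the other RNA-binding genes, 0 had a CG region. The cause of these shifts was not tested. Exon classes from RefSeq were not run, since the reference held no exons. No paired analysis was possible because the table holds group means only, and leaving out embryos was impossible for the same reason.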

Other observations

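Inside the RefSeq span of Rbfox1 lay 2 further lower regions that the table lists under a SINE repeat (B4A) alone and not with the gene. The CHH one was at 1.39% in depressed-RNA embryos and 38.1% in normal-RNA embryos, and the CHG one at 0.0825% in depressed-RNA embryos and 40.8% in normal-RNA embryos. They were left out of the counts above, since regions were taken by gene name. No such region lay inside the spans of the other 9 genes.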
